A study of Mus musculus with 42 samples.

Results

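Regulatory T cells (Treg) of wild-type (WT) mice were compared between the mesenteric lymph node, which drains the ileum, and the inguinal and popliteal nodes, which drain the ankle joint and are called the joint nodes here. The comparison holds 6 of the 42 libraries of the series: 3 from the mesenteric node and 3 from the joint nodes, 1 of each from each of 3 independent experiments, A, B and C. The libraries were taken by their labels for cell type, genotype and site, and the comparison was chosen with earlier results of these data known. The WT mice were littermates of TNFdARE mice, the spondyloarthritis model of the study, which lack the AU-rich element that limits the life of the Tnf transcript. Both WT and TNFdARE mice carried DEREG, a transgene that places green fluorescent protein under the Foxp3 promoter, and cells were sorted on that fluorescence. Conventional CD4 T cells (Tconv), sorted from the same nodes, gave 6 further WT libraries, and Treg of TNFdARE nodes gave 2 mesenteric libraries (B and C) and 3 of the joint nodes. Bulk RNA was sequenced after full-length cDNA amplification. Inguinal and popliteal nodes were pooled. Age, sex and the number of animals per library are not given in the labels, and transcripts of both Xist and the Y-linked Ddx3y were found in each of the 6 libraries, so the tests measure spread among samples that may be partly technical.

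Treg restrain immune responses under the transcription factor Foxp3. In gut-draining nodes, dendritic cells make retinoic acid from vitamin A, and T cells primed there gain gut-homing receptors such as CCR9 and the integrin α4β7. A fraction of intestinal Treg arises in response to the microbiota and carries the transcription factor c-Maf. Nodes that drain skin and joints prime T cells toward receptors and glycans for skin and inflamed tissue. Type I interferon induces antiviral genes through a factor complex that binds a DNA motif called the interferon-stimulated response element.

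Libraries held between 18261064 and 30301202 counts over the whole series, and 18982 to 21065 genes were detected in the 6 WT Treg libraries. Log2 levels correlated across genes at 0.9825 to 0.9921 between any 2 of these 6 libraries. The WT Tconv joint library C stood apart, with 31454 genes detected against 17560 to 18431 in the other WT Tconv node libraries, and it enters the fit that estimates the spread. Values are CPM, the counts scaled to a common library size after normalisation, followed by the standard deviation (SD) over 3 libraries, while log2 fold changes (mesenteric minus joint) carry their standard error (SE). A gene passed at an adjusted p below 0.05, from edgeR's quasi-likelihood test with Benjamini-Hochberg adjustment over all genes tested. In bulk RNA, a larger share of cells that express a gene cannot be told apart from more RNA of that gene per cell.

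The sort gave Foxp3-expressing cells from both sites. Foxp3 (ENSMUSG00000039521, chromosome X, 7573644 to 7595245 in GRCm38) was at 1110, 997 and 1010 CPM in mesenteric libraries A, B and C and at 1300, 1130 and 1100 CPM in joint libraries A, B and C. The sites overlapped, and the difference did not pass (log2 fold change -0.19 ± 0.083, adjusted p = 0.31). WT Tconv held 7.0 CPM in the mesenteric node and 6.99 CPM in the joint nodes. Exons of Flicr, a non-coding RNA on the same strand, overlap Foxp3, and the files do not state how shared reads were counted. Summed over 16 Treg core genes, CPM lay between 8370 and 9190 in mesenteric Treg and between 8160 and 8670 in joint Treg, against 357 to 768 in Tconv of both sites.

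Between the nodes, 372 of 14602 genes passed (2.55%), 273 higher in mesenteric Treg (1.87%) and 99 lower (0.678%). Among them 135 differed by more than 2-fold. The shares of 1.87% and 0.678% are those to set beside each count of list members in WT Treg from this fit. List counts in WT Tconv belong beside 1.6% higher and 0.233% lower, and those in TNFdARE Treg beside 3.63% and 2.13%. Other settings have totals of their own. Asb2, Il10, Lag3, Hic1, Dhrs3 and Ccr9 were among the genes higher in mesenteric Treg, and Wnt10a, Ccr10, Gcnt1 and Lmna among those lower. The median log2 fold change over all genes tested was -0.013. With the experiment letter as a replicate block, 793 of 14602 genes passed, 482 higher and 311 lower. List counts with the replicate block belong beside those totals. Without WT Treg mesenteric library A the number was 191, and without joint library B it was 164. Joint library C has a sample-sheet number of 44 where the other 5 have 7 to 32, and without it 285 genes passed. A fit that estimated the spread over all 42 libraries, tissues included, called 74. Leaving out the WT Tconv joint library C gave 423.

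**Figure D1:**
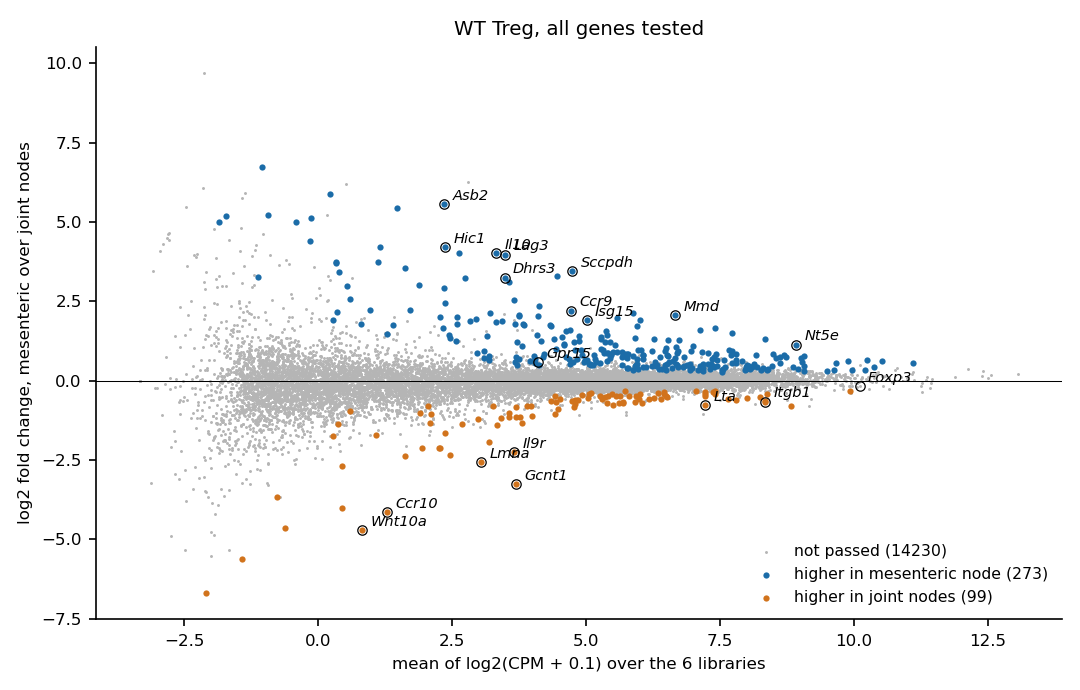
Log2 fold change of each tested gene between mesenteric and joint Treg (vertical axis, positive where mesenteric is higher) against its mean level, log2(CPM + 0.1), over the 6 WT Treg libraries (horizontal axis). Points mark the 273 genes higher in mesenteric Treg, the 99 lower and the genes that did not pass.

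Receptors that direct cells to gut or skin differed in both directions. Ccr9 (ENSMUSG00000029530, chromosome 9, 123678439 to 123784330), the receptor for the small-intestinal chemokine CCL25, was at 53.1, 47.3 and 70.4 CPM in mesenteric libraries A, B and C and at 12.7, 14 and 10.3 CPM in the joint libraries. Every mesenteric library lay above every joint library, 4.6-fold on average (log2 fold change 2.20 ± 0.194, adjusted p = 1.9e-05). Gpr15, the colon-homing receptor, was at 16.5, 19.5 and 28.3 CPM against 11.7, 13.2 and 17.9 CPM. Its sites overlapped and it did not pass (0.58 ± 0.217, adjusted p = 0.21). Cpox, on the opposite strand, shares exonic bases with Gpr15. Ccr10 (chromosome 11, 101172997 to 101175443), which binds the skin chemokine CCL27 and the mucosal CCL28, ran the other way, at 0.861, 0.458 and 0.315 CPM in mesenteric libraries against 11.8, 10.3 and 7.3 CPM. It was 17.6-fold lower in mesenteric Treg (-4.14 ± 0.495, adjusted p = 0.00027). Of 10 mucosal homing genes, 2 were higher (Ccr9 and Itga4) and 1 lower (Ccr10), with a median log2 fold change of 0.338. Itga4, the α4 chain of the gut-homing integrin, was 1.93-fold higher (adjusted p = 0.046), which did not hold without any of WT Treg joint A, B or C, mesenteric B or C, or WT Tconv mesenteric A or B or joint A or B (adjusted p from 0.053 to 0.16). Its partner chain Itgb7 was at 1080 ± 87.6 and 1020 ± 116 CPM (adjusted p = 0.74) and was not called. Itgae, whose integrin holds cells to the epithelium, was at 317 ± 60.6 and 288 ± 11.7 CPM (adjusted p = 0.68). Cerkl on the opposite strand shares exonic bases with Itga4.

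Among 16 genes of homing to skin and inflamed tissue, 3 were higher and 3 lower in mesenteric Treg (median log2 fold change 0.226). The lower ones act in selectin-ligand synthesis and adhesion. Gcnt1 (chromosome 19, 17326141 to 17372844), the glycosyltransferase that builds the core of selectin ligands, was at 5.0, 4.45 and 3.1 CPM in mesenteric libraries against 41.7, 36.2 and 42.4 CPM in joint libraries. Gcnt1 was 9.51-fold lower in mesenteric Treg (-3.25 ± 0.372, adjusted p = 0.00021). No overlap between the sites was required of the largest differences, Gcnt1 and Fut7 among them, so it is no separate result. Fut7, the fucosyltransferase that completes such ligands, was at 3.53, 2.35 and 2.68 CPM against 8.67, 9.41 and 8.97 CPM (-1.66 ± 0.346, adjusted p = 0.018). The Fut7 call was lost without joint A, B or C or mesenteric B or C (adjusted p from 0.055 to 0.1). Itgb1, the β1 integrin chain, was 1.59-fold lower in mesenteric Treg (259 ± 32.3 against 412 ± 29.3 CPM, adjusted p = 0.0025). The higher ones included the inflammatory chemokine receptor Ccr2 and the β2 integrin chain Itgb2. Ccr2 was 1.51-fold higher (adjusted p = 0.018), but did not pass without mesenteric A (0.11), joint A (0.069) or joint C (0.059). Itgb2 was 1.25-fold higher (adjusted p = 0.028) and was lost without mesenteric A, joint B or C, or Tconv mesenteric A or B (adjusted p from 0.05 to 0.16). Selplg, the protein that carries these glycans, was at 732 ± 52.8 and 714 ± 79.3 CPM (adjusted p = 0.92).

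Genes of the type 17 and microbiota-induced Treg program included several that were higher in the mesenteric node. Over all genes tested 1.87% were higher and 0.678% lower. Of 14 listed genes 7 were higher, 1 was lower, 2 did not pass the test and 4 did not pass the filter on low counts. Ccl20 was near 0 in joint Treg and in Tconv and could pass that filter only through mesenteric Treg, so the count is a description. Without the filter all 14 were tested, with 7 higher, 1 lower and a median log2 fold change of 1.273. Of all 34672 genes in that fit, 471 were higher and 243 lower. Maf, the transcription factor c-Maf that promotes Il10, was at 165, 129 and 211 CPM in mesenteric libraries and at 60, 72 and 75.5 CPM in joint libraries (1.28 ± 0.184, adjusted p = 0.0013). Ahr, a receptor for dietary and microbial ligands, was at 65.6, 60.8 and 74.1 CPM against 24.5, 30.4 and 30.7 CPM (1.23 ± 0.228, adjusted p = 0.0086). Both factors were higher in every mesenteric library than in any joint library. Ccl20, the ligand of CCR6, was at 6.93, 6.25 and 7.36 CPM against 0.0, 0.19 and 0.152 CPM, from 500 counts in the mesenteric libraries together and 7 in the joint libraries (adjusted p = 0.00032). Il23r, the interleukin-23 receptor, was 4.7-fold higher (adjusted p = 0.0071, and 0.053 without joint library B). Il1r1, the signalling receptor of interleukin-1, was 10.6-fold higher (adjusted p = 0.022), though it did not pass without mesenteric A (0.083), joint A (0.087) or joint B (0.14). Il21 had 58 mesenteric counts and 1 joint count. Rora was 1.4-fold lower in mesenteric Treg (adjusted p = 0.048) and was lost without any of 9 of the 12 libraries, namely every WT Treg library, WT Tconv joint A or B and WT Tconv mesenteric B (adjusted p from 0.06 to 0.28). The cytokine genes Il17a, Il17f and Il22 did not pass the filter. Of the other genes of the aryl hydrocarbon receptor list, 4 were tested and did not pass.

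**Figure D2:**
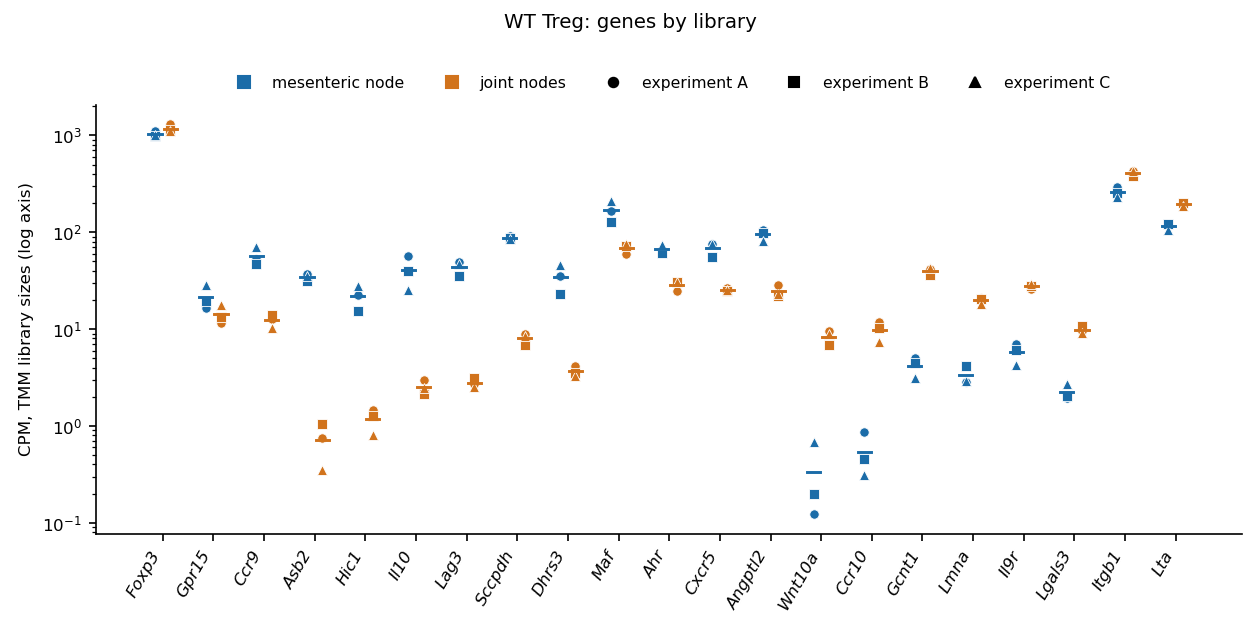
CPM of 21 genes in each WT Treg library on a log axis, coloured by site and marked by experiment letter, with a bar at the mean of each group. The sites do not overlap for genes such as Ccr9, Il10, Wnt10a and Gcnt1, and they overlap for Foxp3 and Gpr15. For Il10, Wnt10a and Gcnt1 lack of overlap was a condition for their place among the largest differences.

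Il10 and Lag3, effector genes of suppressive T cells, showed some of the largest differences. Il10 (chromosome 1, 131019845 to 131024974), the anti-inflammatory cytokine, was at 56.4, 39.8 and 25.5 CPM in mesenteric libraries A, B and C and at 2.95, 2.14 and 2.48 CPM in joint libraries. The lowest mesenteric library lay far above the highest joint library, and the mean was 16-fold higher (4.00 ± 0.44, adjusted p = 0.00016). For Il10, as for Lag3, lack of overlap was a condition for a place among the largest differences, so it is no separate result. Lag3 (chromosome 6, 124904361 to 124911705), an inhibitory receptor that binds MHC class II, was at 49.6, 35.3 and 47.2 CPM against 2.73, 3.14 and 2.53 CPM, 15.7-fold higher (3.97 ± 0.377, adjusted p = 3.7e-05). Of 24 effector and tissue Treg genes tested, 5 were higher and 2 lower, with a median log2 fold change of -0.11, so most of the list did not follow these genes. The other higher members were the transcription factors Nfil3 (2.95-fold, adjusted p = 0.00057) and Batf (1.75-fold, adjusted p = 0.00016) and the activation antigen Cd83 (1.55-fold, adjusted p = 0.0043). Myb, a transcription factor of effector Treg, was 1.51-fold lower (adjusted p = 0.0096), though it did not pass without mesenteric A (0.06), joint B (0.069) or mesenteric C (0.052). S100a6, a calcium-binding protein, was 1.63-fold lower (adjusted p = 0.032) and was lost without joint A, B or C or mesenteric B or C (adjusted p from 0.059 to 0.16). Klrg1 (27.7 ± 3.65 and 31.6 ± 0.961 CPM) and Icos (487 ± 47.8 and 428 ± 26.1 CPM) did not pass. Among 12 co-inhibitory receptors Lag3 was the 1 that passed, while with the replicate block 4 were higher and 1 lower. Of all 14602 genes in the fit with the block, 482 were higher and 311 lower. Among the 16 Treg core genes, 2 were higher and 0 lower. Nt5e, the ectoenzyme CD73 that makes adenosine, was at 704, 706 and 765 CPM against 300, 308 and 385 CPM (2.19-fold, adjusted p = 0.0019), and Izumo1r, the folate receptor 4, was 1.7-fold higher (adjusted p = 0.00024). Il2ra, Ctla4 and Ikzf2 did not pass (adjusted p = 0.59, 0.3 and 0.59).

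Genes of retinoic acid handling differed singly rather than as a list, with 3 of 11 tested higher, 1 lower and a median log2 fold change of 0.069. Dhrs3 (chromosome 4, 144892827 to 144928209), which reduces retinaldehyde and is itself induced by retinoic acid, was at 35.6, 23.1 and 45.5 CPM in mesenteric libraries against 4.14, 3.52 and 3.29 CPM in joint libraries. Dhrs3 was 9.47-fold higher (3.24 ± 0.28, adjusted p = 1.8e-05). Stra6, a transporter of retinol, was at 25.5, 28.7 and 28.7 CPM against 7.61, 5.33 and 6.74 CPM (2.07 ± 0.289, adjusted p = 0.001). Tgm2, a transglutaminase induced by retinoic acid, was 5.42-fold higher (adjusted p = 0.014), which did not hold without mesenteric A or C or joint A or B (adjusted p from 0.052 to 0.1), and Rprd1b on the opposite strand shares exonic bases with it. Rxra, a partner of the retinoic acid receptors, was 1.54-fold lower (adjusted p = 0.042) and was lost without any single WT Treg library, Tconv mesenteric A or Tconv joint B (adjusted p from 0.051 to 0.24). Hic1 (chromosome 11, 75164565 to 75169519), a transcriptional repressor of intestinal T cells that responds to retinoic acid, was not on the list and was at 22.4, 15.4 and 28 CPM against 1.45, 1.28 and 0.811 CPM. It was 18.3-fold higher (4.2 ± 0.295, adjusted p = 2.6e-06). The receptor Rara did not pass (72.2 ± 3.02 and 89.2 ± 12 CPM, adjusted p = 0.2).

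The largest fold difference among genes of at least moderate level belonged to Asb2 (ENSMUSG00000021200, chromosome 12, 103321142 to 103356001), the substrate receptor of a ubiquitin ligase. It was at 36.8, 31.2 and 35.5 CPM in mesenteric libraries and at 0.748, 1.05 and 0.355 CPM in joint libraries. Mesenteric libraries agreed closely and lay 47.4-fold above the joint libraries (5.57 ± 0.328, adjusted p = 7.6e-07). Sccpdh, a predicted oxidoreductase, was at 92.1, 87.3 and 84.9 CPM against 8.93, 6.89 and 8.51 CPM (10.8-fold, adjusted p = 7.6e-07). Plac8, a small cysteine-rich protein, was at 27.5, 23.7 and 21.7 CPM against 1.54, 1.38 and 1.57 CPM (16.2-fold, adjusted p = 0.0011). The rule that picked the largest differences required no overlap between the sites, so that trait of both genes is no separate result. Fhdc1, of the formin family, was 11.8-fold higher, Atp6v0d2, a subunit of the vacuolar proton pump, 9.31-fold, and the membrane protein gene Emp1 7.55-fold (adjusted p = 0.0006, 0.0033 and 0.0015). Tph1, the first enzyme of serotonin synthesis, was at 8.82, 11.4 and 12.2 CPM against 0.0, 1.05 and 0.71 CPM (18.5-fold, adjusted p = 0.015). In Tconv it was at 0.043 CPM in the mesenteric node and 0.107 CPM in the joint nodes. Like Ccl20, Tph1 could pass the filter on low counts only through mesenteric Treg. The Tph1 call was lost without mesenteric B or C or joint B or C (adjusted p from 0.051 to 0.057) and in DESeq2 (0.24). Hspa1b, an inducible heat shock protein, was at 54.5, 52.3 and 10.5 CPM against 5.37, 3.0 and 5.32 CPM (8.6-fold, adjusted p = 0.034). Mesenteric library C was the low one, and the call was lost without mesenteric A or B, joint A, B or C, or Tconv joint B (adjusted p from 0.054 to 0.21). Reads of Hspa1b and its near-identical copy Hspa1a can be exchanged in counting. Of the 12 higher genes with the largest change at that level, 10 passed in each of the 12 fits that omitted 1 library.

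Genes lower in mesenteric Treg, and so higher in the joint nodes, included secreted, structural and cytokine-receptor genes. Wnt10a (ENSMUSG00000026167, chromosome 1, 74791516 to 74804179), a secreted Wnt ligand, was at 0.123, 0.196 and 0.683 CPM in mesenteric libraries and at 9.46, 6.8 and 8.82 CPM in joint libraries. It was close to undetected at one site, with 22 counts over 3 libraries against 532, and 26.2-fold lower (-4.71 ± 0.481, adjusted p = 8.2e-05). Lmna (chromosome 3, 88480147 to 88509956), which encodes lamins A and C of the nuclear envelope, was at 2.87, 4.19 and 2.94 CPM against 20.9, 20.7 and 18.3 CPM (-2.57 ± 0.204, adjusted p = 7e-06). Il9r, the interleukin-9 receptor, was at 7.05, 6.05 and 4.31 CPM against 26.1, 28 and 29 CPM (-2.25 ± 0.249, adjusted p = 0.00016). For each of these 3 genes the joint libraries agreed closely. A lack of overlap between the sites was a condition for their place among the largest differences, so it is no separate result. Lgals3, the lectin galectin-3, was 4.38-fold lower, the phosphatase gene Ptpn5 3.81-fold, Zbtb32, a transcriptional repressor of activated lymphocytes, 2.65-fold, and Cyp2s1, a cytochrome P450, 2.6-fold (adjusted p = 0.00024, 0.0072, 0.0028 and 0.0014). Fam129b was 4.39-fold lower (adjusted p = 0.0073), and exons of Lrsam1 on the opposite strand overlap it. Kcna2, a potassium channel, was 4.33-fold lower (adjusted p = 0.015), which did not hold without mesenteric B or C or joint B or C (adjusted p from 0.062 to 0.083). Of the 12 lower genes with the largest change, 10 passed in each of the 12 fits that omitted 1 library. Lta, which encodes lymphotoxin-alpha, was at 118, 121 and 106 CPM against 197, 201 and 187 CPM (1.7-fold lower, adjusted p = 0.0017), and Cd200r1, an inhibitory receptor, was 1.72-fold lower (adjusted p = 0.006). Bcl2l1, which encodes the anti-apoptotic protein Bcl-xL, was 1.51-fold lower (adjusted p = 0.006).

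Interferon-induced genes were higher in mesenteric Treg as a group. Of 25 listed genes all were tested, 20 were higher, 0 were lower, and all 25 had a positive log2 fold change with a median of 1.053, against -0.013 over all genes, where 1.87% were called higher. For 22 of the 25 every mesenteric library lay above every joint library. The share of all genes tested that did so is not given here, so this count is a description. Many genes of this kind carry the interferon-stimulated response element before their start. Its core, GAAANNGAAA on either strand, was searched in the 250 bases before the start of each gene with an entry in the RefSeq table (GRCm38.p6). The core was found in 10 of the 18 list genes with an entry (55.6%) and in 3.04% of 27025 genes. Among the 16 entries of genes that passed, 9 held it. The list was made of interferon-induced genes, so these shares describe the list and not the site difference. Gene coordinates elsewhere in the text are from GENCODE M21, and their starts can differ by some bases from the RefSeq starts used here. Upstream bases of 3 that passed are given 5′ to 3′ up to the base before the RefSeq start, to show how the core is placed, with matches in capitals.
Isg15 (chr4:156200819-156200978, minus strand): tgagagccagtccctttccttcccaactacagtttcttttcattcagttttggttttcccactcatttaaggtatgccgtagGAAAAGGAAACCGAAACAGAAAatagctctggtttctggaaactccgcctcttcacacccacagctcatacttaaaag
Ifit1 (chr19:34640729-34640888, plus strand): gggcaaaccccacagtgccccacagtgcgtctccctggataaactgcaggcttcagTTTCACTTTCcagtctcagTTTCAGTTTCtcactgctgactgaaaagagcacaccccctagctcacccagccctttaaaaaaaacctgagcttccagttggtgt
Bst2 (chr8:71537473-71537632, minus strand): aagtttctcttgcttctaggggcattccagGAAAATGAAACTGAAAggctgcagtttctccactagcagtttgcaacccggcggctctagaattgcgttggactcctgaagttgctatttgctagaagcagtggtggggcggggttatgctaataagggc
The 3 matches of Isg15 overlap one another and begin 78, 72 and 66 bases before the start. Those of Ifit1 begin 104 and 85 bases before it, on the opposite strand, and the overlapping pair of Bst2 begins 130 and 124 bases before it. A match describes these letters and shows no binding.

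Isg15 (chromosome 4, 156199424 to 156200818), a ubiquitin-like antiviral modifier, was at 81.3, 69.1 and 41.6 CPM in mesenteric libraries A, B and C and at 16.6, 13.2 and 21.4 CPM in joint libraries. Even the lowest mesenteric library, C, lay above the highest joint library, which was also C, and the mean was 3.76-fold higher (1.91 ± 0.268, adjusted p = 0.001). Bst2 (chromosome 8, 71534255 to 71537456), the tetherin that holds budding virus at the membrane, was at 129, 99.8 and 86.4 CPM against 55.8, 48.3 and 59.7 CPM (0.94 ± 0.146, adjusted p = 0.0024). Ifit1 (chromosome 19, 34640871 to 34650009), which binds foreign RNA, was at 307, 303 and 145 CPM against 73.9, 72.0 and 106 CPM (1.58 ± 0.293, adjusted p = 0.0086, and 0.074 without joint library B). In all 3 genes the gap between sites was narrow in experiment C. Ifih1, the RNA sensor MDA5, was 1.87-fold higher, Oas1a, a sensor of double-stranded RNA, 1.98-fold, Ifi27l2a 1.8-fold and Trim30a 1.57-fold (adjusted p = 0.0014, 0.0036, 0.00058 and 0.0039). Among genes that passed, log2 fold changes ran from 0.65 to 1.94. Stat2 (adjusted p = 0.14), Mx1 (0.14), Zbp1 (0.061) and Ifit2 (0.62) did not pass. Ifit3 and Ifit3b are near-identical copies, so their separate values are uncertain.

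The size of the interferon difference varied with the experiment. The median log2 ratio of mesenteric to joint library over the 25 genes was 1.448 for A, 1.229 for B and 0.301 for C, where 22 of 25 ratios still exceeded 1. Library C was the lowest mesenteric library for 24 genes and the highest joint library for 24. The calls rest on few libraries: 7 genes passed without WT Treg mesenteric A, 8 without joint A, 12 without mesenteric B and 6 without joint B, against 22 without mesenteric C and 17 without joint C. Of the 20 calls, 6 (Isg15, Ifi27l2a, Ifih1, Bst2, Oas1a and Trim30a) passed in every fit that omitted 1 library and 14 did not. With all 42 libraries in the fit 3 of the 25 passed, and with deposited FPKM values 6 passed. In WT Tconv of the same nodes 24 of the 25 were higher in the mesenteric node (median 1.278), against 1.6% of all genes. The site difference did not differ between Treg and Tconv by the test for any of them (0 of 25, lowest adjusted p = 0.97). In TNFdARE Treg 2 were higher, where 3.63% of all genes were called higher, with a median of 0.426. The TNFdARE difference was the smaller for 24 of 25 genes, but the difference between genotypes did not pass for any (0 of 25, lowest adjusted p = 0.58). TNFdARE mesenteric Treg had libraries B and C but no A, the experiment with the largest WT ratio. A smaller TNFdARE difference cannot be told apart from that missing library.

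**Figure D3:**
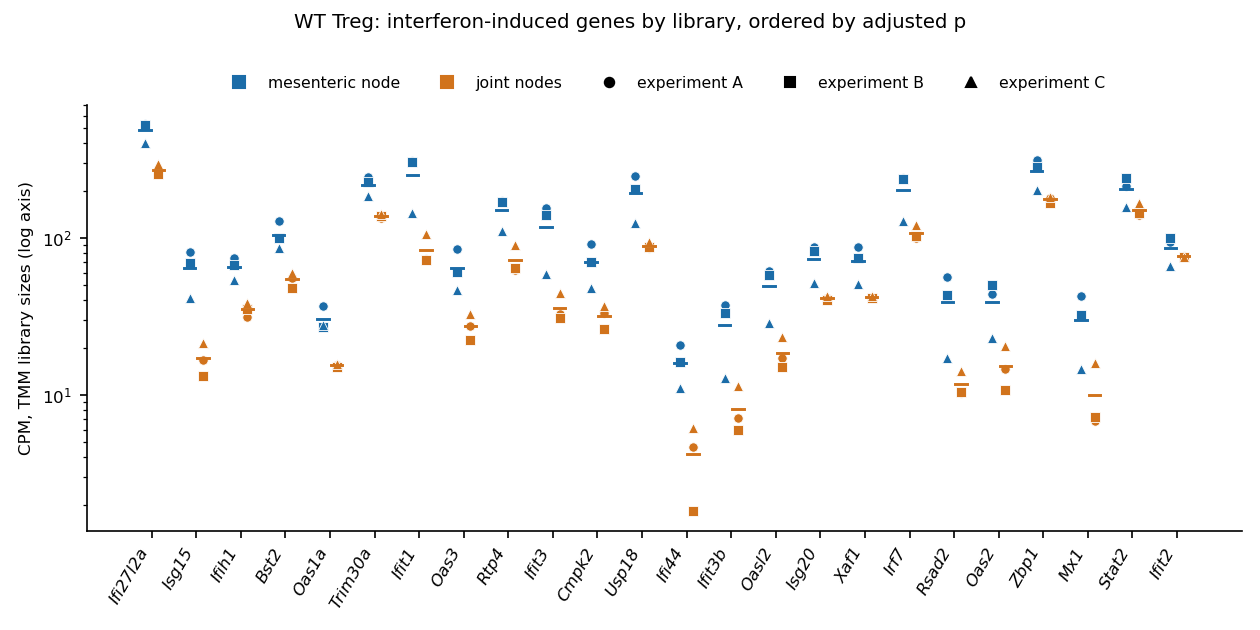
CPM of 24 of the 25 interferon-induced genes in each WT Treg library on a log axis, ordered by adjusted p, coloured by site and marked by experiment letter. Mesenteric libraries A and B lie above the joint libraries for all 24 genes shown.

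Follicular genes, which mark cells that enter B cell follicles, had 5 of 10 tested members higher in the mesenteric node and 0 lower, where 1.87% of all genes were called higher. The median log2 fold change of those 10 was 0.647, and 2 of the 12 listed genes did not pass the filter. Cxcr5, the follicle-homing receptor, was at 76.5, 55.7 and 76.2 CPM against 26.6, 24.5 and 25.4 CPM (1.44 ± 0.177, adjusted p = 0.00032), and Bcl9l on the opposite strand shares exonic bases with it. Angptl2, a secreted glycoprotein, was at 106, 98.3 and 81.9 CPM against 28.4, 21.8 and 23.3 CPM (1.96 ± 0.139, adjusted p = 2.6e-06). Sh2d1a, the adaptor SAP, was 1.68-fold higher (adjusted p = 0.0017), and Tox2, a nuclear factor of follicular cells, 3.0-fold (adjusted p = 0.01, but 0.06 without mesenteric A and 0.083 without joint B). Sostdc1 had 47 mesenteric counts and 1 joint count (adjusted p = 0.046), and did not pass without mesenteric A or C, any joint library or any mesenteric Tconv library (adjusted p from 0.061 to 0.22). Bcl6, the defining factor of follicular cells, was at 28.5 ± 4.07 and 27.3 ± 3.56 CPM (adjusted p = 0.91), and Pdcd1 did not pass (adjusted p = 0.21). The follicular genes moved beside a higher sum of B cell markers in mesenteric libraries. That list summed to 1300, 1040 and 1320 CPM in mesenteric Treg and to 824, 854 and 828 CPM in joint Treg. Nearly all of that was Ighm, the μ heavy chain (1270, 989 and 1250 CPM against 786, 777 and 749 CPM, 1.52-fold, adjusted p = 0.0014), and 1 of 8 tested B cell markers passed. In WT Tconv of the same nodes 8 follicular genes were higher in the mesenteric node, with a median log2 fold change of 1.477. Of all genes tested in Tconv, 1.6% were called higher. B cell markers in Tconv summed to 621 to 663 CPM in the mesenteric node and to 766 to 801 CPM in the joint nodes. The part of B cell RNA in these differences was not tested.

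Marker sums of other cell types were low beside the T cell sums and overlapped between the sites, except those of CD8 and NK cells, higher in mesenteric libraries, and of stroma, lower in them. Their part in the results was not tested. Plasma cell markers summed to 2.19 to 8.09 CPM in mesenteric and 3.41 to 5.15 CPM in joint Treg, with Iglc1 at 0 in all 6 libraries. Of their 4 tested genes Derl3 was lower, with 41 mesenteric and 216 joint counts (adjusted p = 0.011, but 0.083 without joint B). CD8 and NK markers summed to 20.3 to 23.4 and 12.4 to 18 CPM, with the NK receptor Ncr1 at 0. Of their 3 tested genes Klrb1c was higher, at 3.2 ± 0.599 and 0.099 ± 0.135 CPM (adjusted p = 0.016, but 0.075 without joint A and 0.099 without joint B). Sums for γδ T and innate lymphoid cells (24.7 to 28.4 and 27.3 to 35 CPM) overlapped between the sites. Myeloid markers overlapped too (57.1 to 74.3 and 47.7 to 59.2 CPM), with Clec9a and S100a8 at 0. Epithelial markers summed to 43.6 to 48.1 and 47.1 to 55.9 CPM with Fabp2 at 0. Of their 5 tested genes Krt19 was lower, with 2 mesenteric and 111 joint counts (adjusted p = 0.026). The Krt19 call was lost without mesenteric A or B or joint A or B (0.058 to 0.14). Stromal markers summed to 185 to 214 and 229 to 264 CPM with Lyve1, Ccl21a and Ccl19 at 0. T cell identity genes summed to 6930 to 7590 CPM in mesenteric and 6070 to 6590 CPM in joint Treg, and 3 of 8 (Cd3d, Cd3g and Trac) were higher. Cd3d (adjusted p = 0.031), Cd3g (0.031) and Trac (0.023) each failed without mesenteric A, joint B or joint C (0.074 to 0.16), and Cd3d and Cd3g also without mesenteric C or Tconv mesenteric A or B, and Cd3g without Tconv joint A (0.05 to 0.1).

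Further lists gave few calls. Among 14 genes of the naive state and node retention, Il7r was 1.42-fold lower (adjusted p = 0.025, and 0.087 to 0.12 without mesenteric A or B or joint B or C) and 0 were higher. Ccr7, the node-homing receptor, did not pass (adjusted p = 0.94). None of 20 proliferation genes passed in edgeR's test, although all 20 had a negative log2 fold change, with a median of -0.739 and a lowest adjusted p of 0.14. With the replicate block 5 of them were lower, by voom 6, without a filter 8 and by DESeq2 1. Over all genes the same fits called 311, 272, 243 and 239 lower, of 34672 without a filter and 14602 otherwise. Mki67, a marker of cycling cells, was at 19.9, 17.3 and 43.1 CPM against 31.9, 57.9 and 55.8 CPM, so the sites overlapped. Of 11 heat shock genes all had a positive log2 fold change and 2 were higher, Hspa1b and Hsp90ab1. Hsp90ab1 was 1.55-fold higher (adjusted p = 0.041), and did not pass without mesenteric A or C, joint A or B, Tconv mesenteric A, or Tconv joint A or B (0.055 to 0.21). With the replicate block 10 of the 11 were higher, where 482 of all 14602 genes were called higher. The immediate early gene Fos differed more between experiments than between sites, at 610, 92.9 and 13.2 CPM in mesenteric libraries A, B and C and at 751, 309 and 11.9 CPM in joint libraries. Bcl3, a cofactor of NF-kB, was 1.75-fold higher (adjusted p = 0.00025), Hif1a, the hypoxia factor, 1.67-fold (adjusted p = 0.0011) and Stat4, a transducer of interleukin-12, 1.49-fold (adjusted p = 0.003). Eomes, a factor of cytotoxic cells, was 3.36-fold higher (adjusted p = 0.0058). Of 15 type 1 and cytotoxic genes tested, 3 were higher (Eomes, Gzma and Stat4) and 1 lower, with a median log2 fold change of 0.271. The lower one, Nkg7 (1.49-fold, adjusted p = 0.048), was lost in 11 of the 12 fits that omitted 1 library. Of 20 TNF and NF-kB genes, 3 were higher and 1 lower, with a median of -0.083. Of 19 glycolysis and hypoxia genes, 2 were higher and 0 lower. None of 18 cholesterol and fatty acid genes passed (lowest adjusted p = 0.12).

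**Figure D4:**
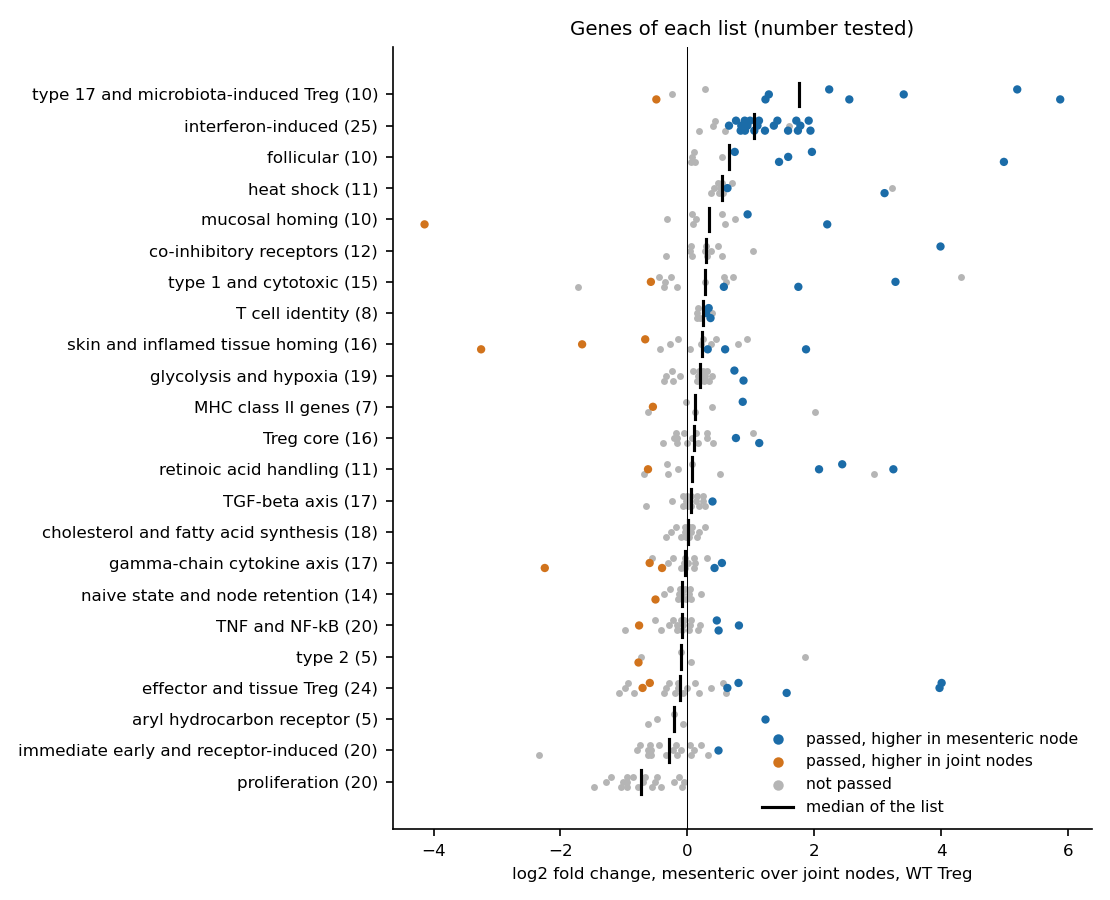
Log2 fold change of each tested gene of the described lists in WT Treg (horizontal axis, mesenteric minus joint), with the median of each list marked. All genes of the interferon-induced list lie to the right of 0, and all of the proliferation list to the left.

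The same 2 node sites were sampled in separate libraries. In TNFdARE Treg 985 of 17108 genes passed (5.76%), 621 higher in the mesenteric node (3.63%) and 364 lower (2.13%), a count that was 359 without mesenteric library B and 653 without joint library B. Of the 273 genes higher in WT mesenteric Treg, 264 had the same direction in TNFdARE Treg, 193 passed and 0 passed in the opposite direction. Of the 99 lower genes, 92 had the same direction and 58 passed. Over all genes tested, 46.9% had a positive log2 fold change in TNFdARE Treg. Asb2 differed by 5.56 ± 0.336 on the log2 scale in TNFdARE Treg (adjusted p = 1.7e-09), Hic1 by 4.86 ± 0.32, Il10 by 5.06 ± 0.51 and Lag3 by 4.46 ± 0.355. Wnt10a was lower there too (-5.91 ± 0.736, adjusted p = 1.9e-05), as was Lmna (-3.13 ± 0.346). Of the 12 largest higher genes 10 passed in TNFdARE Treg, and of the 12 largest lower genes 11 did.

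The site difference itself differed between genotypes for 32 of 17108 genes (0.187%), with a higher value in TNFdARE Treg for 23 (0.134%) and a lower one for 9 (0.0526%). The number was 4 without TNFdARE mesenteric library B. It fell to 13 without TNFdARE joint A, 14 without TNFdARE joint B, 20 without TNFdARE joint C, 19, 12 and 18 without WT Treg joint A, B or C, 17 without WT Treg mesenteric B and 21 without WT Tconv mesenteric A. It was 55 without TNFdARE mesenteric C and 79 with the replicate block. Gzmb, a cytotoxic protease, did not pass between WT nodes (14.6 ± 3.42 and 28.2 ± 1.95 CPM, -0.94 ± 0.306, adjusted p = 0.14) but was higher in the TNFdARE mesenteric node (3.32 ± 0.324). The genotype difference of 4.24 ± 0.435 passed with each library left out in turn (adjusted p = 7.1e-05, at most 0.0027). Cyp2s1 was lower in WT mesenteric Treg and stood at 0.57 ± 0.204 in TNFdARE Treg, a difference of 1.93 ± 0.279 (adjusted p = 0.0024, at most 0.037 with a library left out). Lgmn, a lysosomal protease, differed by 2.10 ± 0.277 (adjusted p = 0.0014). The Ccr9 difference was larger in TNFdARE Treg, at 3.95 ± 0.214 against 2.20 ± 0.194 in WT. That difference of 1.73 ± 0.281 (adjusted p = 0.0072) was not called without TNFdARE mesenteric library B (0.17). Penk, the enkephalin precursor, was at 57.8 ± 5.5 and 39.2 ± 6.69 CPM in WT and did not pass there (adjusted p = 0.35), while its TNFdARE difference was -1.32 ± 0.238. The genotype difference of -1.89 ± 0.317 passed (adjusted p = 0.01), but not without TNFdARE mesenteric B (0.072), TNFdARE joint A (0.052) or WT joint B (0.05).

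Conventional T cells of the same WT nodes shared part of the pattern. In Tconv 268 of 14602 genes passed (1.84%), 234 higher in the mesenteric node (1.6%) and 34 lower (0.233%). The number was 152 without Tconv mesenteric A, 151 without Tconv joint A, 137 without Tconv joint B and 442 with the replicate block. Of the 273 genes higher in mesenteric Treg, 251 had the same direction in Tconv, 115 passed and 1 passed in the opposite direction. Of the 99 lower genes, 84 had the same direction, 11 passed and 2 passed in the opposite direction. Over all genes tested 48.7% were positive in Tconv. Asb2 (4.86 ± 0.365, adjusted p = 8.6e-06), Hic1 (2.81 ± 0.309), Lag3 (3.17 ± 0.452), Maf (1.98 ± 0.21) and Nt5e (1.67 ± 0.178) were higher in mesenteric Tconv, and Ccr10 was lower (-3.22 ± 0.541, adjusted p = 0.0057). Ccr9 was at 0.81 ± 0.197 in Tconv (adjusted p = 0.056) against 2.20 in Treg, and that gap did not pass (1.4 ± 0.273, adjusted p = 0.088).

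The test of the site difference between Treg and Tconv called 15 of 14602 genes (0.103%), 5 with a higher value in Treg (0.0342%) and 10 with a lower one (0.0685%). The number was 53 with the replicate block and 25 without the Tconv joint library C. Mmd, a membrane receptor-like protein, was at 215, 192 and 215 CPM in mesenteric Treg and at 47.3, 45.1 and 57.5 CPM in joint Treg (2.05 ± 0.124, adjusted p = 7.6e-07). In Tconv its difference was 0.44 ± 0.124 (adjusted p = 0.12), and the gap of 1.62 ± 0.174 passed (adjusted p = 0.0016). Pard6g, a cell polarity gene, was at 103, 93.7 and 94.3 CPM against 41.6, 37.8 and 34.4 CPM in Treg (1.35 ± 0.119), but at -0.05 ± 0.122 in Tconv, a gap of 1.41 ± 0.17 (adjusted p = 0.0044). Both were higher in each mesenteric Treg library. Myb ran in opposite directions, lower in mesenteric Treg (-0.59 ± 0.111) and higher in mesenteric Tconv (1.18 ± 0.116, adjusted p = 8.4e-05), with a gap of -1.77 ± 0.161 (adjusted p = 0.00041). Serpina3g, a serine protease inhibitor, was higher in mesenteric cells of both kinds, by 0.93 ± 0.165 in Treg (adjusted p = 0.0058, but 0.053 without joint library B) and 3.04 ± 0.233 in Tconv, a gap of -2.10 ± 0.29 (adjusted p = 0.0094). The gaps of Mmd, Pard6g, Myb and Serpina3g passed with each library left out in turn, but that of Serpina3g did not pass by limma voom (adjusted p = 0.17). Itgav, an integrin chain that activates TGF-beta, was 1.31-fold higher in mesenteric Treg and lower in mesenteric Tconv (-0.41 ± 0.0901, adjusted p = 0.031). Its gap of 0.80 ± 0.126 (adjusted p = 0.021) was lost in 7 of the 12 fits that omitted a library (up to 0.099, without joint Treg B), and its Treg call was lost without mesenteric A or C or joint A or B (adjusted p from 0.078 to 0.12). The 12 largest higher genes and the 12 largest lower genes included 0 whose difference between Treg and Tconv passed (lowest adjusted p = 0.21 and 0.063).

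**Figure D5:**
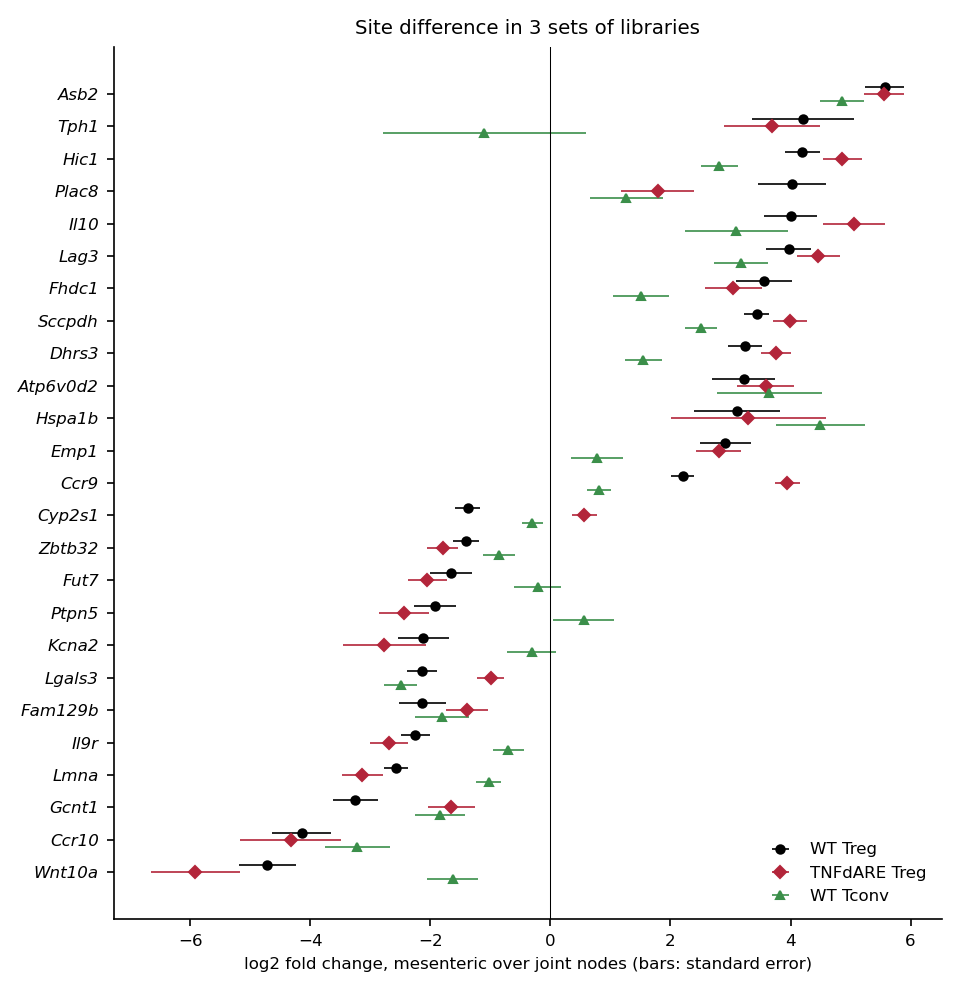
Log2 fold change (mesenteric minus joint, horizontal axis) with its standard error for 25 genes in WT Treg, TNFdARE Treg and WT Tconv. Asb2, Hic1 and Lag3 lie to the right in all 3 comparisons, Wnt10a and Ccr10 to the left, while Cyp2s1 lies to the left in both WT comparisons and to the right in TNFdARE Treg.

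WT Treg of the tissues that the nodes drain gave levels for the same genes, described here by their levels in 3 ileal and 2 synovial libraries (A and B). The tissues were not tested against each other. CPM in this paragraph are scaled over all 42 libraries, with the SD over 3 ileal or 2 synovial libraries. Of the 273 genes higher in mesenteric Treg, 220 (80.6%) had a higher mean in ileal than in synovial Treg, and of the 99 lower genes 20 (20.2%) did, against 55.8% of all genes tested. Ccr9 was at 370 ± 39.5 CPM in ileal Treg and had 0 counts in both synovial libraries, where 3 counts would correspond to at most 0.164 CPM. Il10 was at 782 ± 137 CPM in ileal and 136 ± 28.3 CPM in synovial Treg. Both tissue values of Il10 exceeded either node. Asb2 was at 190 ± 6.66 and 20.9 ± 9.05 CPM, Dhrs3 at 137 ± 38.1 and 15.8 ± 13.2 CPM, and Sccpdh at 94.8 ± 1.34 and 13 ± 8.18 CPM. Lag3 was at 16.7 ± 14 CPM in ileal and 0.55 ± 0.778 CPM in synovial Treg, beside 42.6 ± 7.11 CPM in mesenteric Treg on this scale. On the joint side, Lmna reached 2020 ± 21.2 CPM in synovial Treg against 79.3 ± 35.3 CPM in ileal Treg, Lgals3 310 ± 94.0 against 7.26 ± 3.54, Itgb1 1020 ± 383 against 176 ± 82.2 and Gcnt1 56.1 ± 24.9 against 10.8 ± 4.36. Il9r was at 109 ± 80.5 CPM in synovial and 10.3 ± 5.94 CPM in ileal Treg. Wnt10a, by contrast, had 0 counts in Treg libraries of both tissues and was found in the nodes. Of the 12 largest lower genes 11 had a lower mean in ileal than in synovial Treg, and of the 12 largest higher genes 10 had a higher one, the exceptions being Tph1 and Emp1.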

How the data were processed

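The authors sequenced sorted Treg and Tconv as single 100-base reads after SMART-Seq v4 amplification of 100 pg or 2 ng of RNA, per the labels' protocols, which do not say which library had which amount. Reads were processed with cutadapt 1.15, Bowtie2 2.3.3.1 and the GRCm38 build, per the submitters' processing notes. The counting program, its use of strand and the treatment of reads from near-identical genes are not given in the sources used here. Raw counts were deposited for 46603 genes, and 0 sample columns stayed unmatched. The FPKM values, made by the authors for 18964 genes, served only as a check, as log2(FPKM + 1). GENCODE M21 gave symbols to 46091 genes and none to 512.

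Counts were filtered with filterByExpr, TMM-normalised and fitted by group in edgeR 4.0.16 under R 4.3.3, over the 12 WT node libraries (22 node libraries where TNFdARE entered). Results were tested with the quasi-likelihood F test and Benjamini-Hochberg adjustment. CPM were computed from the deposited counts with TMM library sizes, and log2 fold changes from the fit. With PCR reads and no molecular identifiers, counting limits cover counting error only. Alternatives were RLE factors, no filter, DESeq2 1.42.0, limma 3.58.1 (voom and FPKM), other sets of libraries, a replicate block and omission of each library.

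The labels give letters A, B and C, and the series design gives 3 independent experiments, which the letters were taken to mark. Deviations of same-letter mesenteric and joint libraries from their group means correlated across genes at 0.47, 0.17 and 0.36 in Treg and at 0.21, 0.13 and 0.29 in Tconv, so the letters pair the libraries. The fit without the block was kept as the primary result, with the block as a check. With the block 793 genes passed against 372 without it, so a gene said not to pass may pass with the pairing in the fit.

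Named genes were Foxp3, Ccr9 and Gpr15, and up to 12 in each direction with the largest change. Those were taken among genes that passed, reached a mean log2 CPM of 3 and did not overlap between sites. That level could be met over the 6 libraries or in either group alone. Also named were the 5 genes of lowest adjusted p at most from every list, and up to 6 in each direction for the differences between site effects. The ranking omitted predicted genes, antigen receptor segments and genes linked to sex. Other list members were named with their values. The comparison, the 30 gene lists and the promoter motif were chosen with earlier results of these data known. The scripts were tested on simulated data. Some members of the lists are counted in them but not reported here singly.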

Additional observations from a re-analysis of the deposited data

Results flagged for a closer look

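The site difference (mesenteric minus joint, log2) was compared between WT Treg and WT Tconv by an interaction test in edgeR, and 11 named genes passed. It was higher in Treg for Mmd (1.62 ± 0.174, adjusted p = 0.0016), Pard6g (1.41 ± 0.17, adjusted p = 0.0044), Glb1 (0.93 ± 0.129, adjusted p = 0.0094), Ighm (0.86 ± 0.124, adjusted p = 0.011) and Itgav (0.80 ± 0.126, adjusted p = 0.021). It was lower in Treg for Serpina3g (-2.10 ± 0.29, adjusted p = 0.0094), Myb (-1.77 ± 0.161, adjusted p = 0.00041), Nkg7 (-1.52 ± 0.209, adjusted p = 0.0094), Casp4 (-1.48 ± 0.247, adjusted p = 0.035), Irf4 (-1.35 ± 0.227, adjusted p = 0.035) and Slc4a8 (-1.30 ± 0.191, adjusted p = 0.011). Of these 11, 6 passed with each library left out in turn. Ighm did not without Tconv mesenteric A (0.052), Slc4a8 without joint Treg A (0.05) or B (0.069), and Itgav was lost in 7, Casp4 in 10 and Irf4 in 10 of the 12 fits that each omitted 1 library (up to 0.099, 0.15 and 0.15). The gap of Serpina3g did not pass by limma voom (0.17). Exons of Tmppe overlap Glb1 on the same strand.

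The site difference of Treg was compared between TNFdARE and WT in the same way, and 14 named genes passed. It was larger or of higher sign in TNFdARE for Gzmb (4.24 ± 0.435, adjusted p = 7.1e-05), Ccr2 (2.38 ± 0.348, adjusted p = 0.0024), Lgmn (2.10 ± 0.277, adjusted p = 0.0014), Cxcr6 (2.03 ± 0.395, adjusted p = 0.036), Cyp2s1 (1.93 ± 0.279, adjusted p = 0.0024), Fabp5 (1.88 ± 0.266, adjusted p = 0.0024), Ccr9 (1.73 ± 0.281, adjusted p = 0.0072) and Serpina3g (1.58 ± 0.241, adjusted p = 0.0038). It was lower for Penk (-1.89 ± 0.317, adjusted p = 0.01), Lad1 (-1.41 ± 0.282, adjusted p = 0.04), Sdc3 (-1.36 ± 0.261, adjusted p = 0.035), Fam129c (-1.11 ± 0.227, adjusted p = 0.046), Rarg (-1.02 ± 0.204, adjusted p = 0.039) and Nrp1 (-0.93 ± 0.146, adjusted p = 0.0054). Of these 14, 3 (Gzmb, Cyp2s1 and Lgmn) passed with each library left out in turn. Without TNFdARE mesenteric library B the adjusted p was 0.17 for Ccr9, 0.072 for Ccr2, 0.082 for Serpina3g, 0.51 for Cxcr6, 0.082 for Fabp5, 0.072 for Penk, 0.3 for Lad1, 0.2 for Sdc3, 0.4 for Fam129c and 0.082 for Nrp1. For Rarg the highest value was 0.12, without TNFdARE joint library A. The loss was not tied to that library alone for every gene: of the 22 fits that each omitted 1 library, 17 lost Fam129c, 12 Lad1, 10 Cxcr6, 10 Rarg, 9 Sdc3 and 3 Penk. Fam129c was also lost without a filter (0.16) and with only the 11 Treg node libraries (0.066). Exons of Pgls overlap Fam129c on the same strand.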

How the results depend on the processing

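Counts of genes depended on the settings more than directions did. In WT Treg the 372 genes became 714 without a filter beyond 1 count, 762 by DESeq2, 829 by voom, 793 with the replicate block, 1258 with the replicate block and only the 6 WT Treg libraries, and 74 with all 42 libraries in the fit. Leaving out 1 library gave 164 to 423. In WT Tconv the 268 became 757 without a filter, 510 by DESeq2 and 442 with the replicate block, and 137 to 280 without 1 library. The 15 genes of the Treg minus Tconv test became 287 without a filter, 112 by DESeq2 and 53 with the replicate block, and 10 to 25 without 1 library. In TNFdARE Treg the 985 ranged from 359 to 1153 without 1 library. The 32 genes of the TNFdARE minus WT test became 221 without a filter, 115 by DESeq2, 85 by voom, 79 with the replicate block and 53 with only the 11 Treg node libraries, and 4 to 55 without 1 library. RLE factors and the other settings tried moved these counts by less than 1.5 times. The causes were not tested. Of 1476 single-gene results under settings other than leaving out a library, 1313 kept direction and call, 141 lost the call, 21 gained one and 1 reversed: the WT Treg difference of Fam129c, at 0.07 in edgeR (adjusted p = 0.9) and -0.004105 by voom (adjusted p = 0.99), not called in either. Of the losses 70 came from the fit of all 42 libraries. Of 107 named and list genes that passed between WT nodes, the replicate block lost 0, and 56 passed in every fit without 1 library and 51 did not. Of the 372 genes, 371 had the same sign in deposited FPKM values, where 438 genes passed.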
